A study of Rattus norvegicus with 18 samples.

Results

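The glutamate receptor complex described here comprises the subunits of the ionotropic and metabotropic glutamate receptors and the proteins that anchor them. Its members were all probe sets, each a group of short probes for 1 transcript, whose single annotated symbol began with Gria, Grik, Grin, Grid, Grip, Grm, Homer, Dlg, Shank or Nptx. This gave 54 probe sets of 31 genes, among 1137 probe sets of 720 genes with a single symbol and 1322 probe sets in all. By family there were 10 probe sets for Gria, 6 for Grik, 16 for Grin, 1 for Grid, 3 for Grip, 9 for Grm, 4 for Dlg and 5 for Nptx, and 0 for Homer and Shank. The rule itself reads names and no measured value, though it was chosen with earlier results of these data known. The prefix rule also took in Grina, a membrane protein named for an early link to NMDA receptors that is not a channel subunit, and Dlgap4, a partner of the Dlg proteins.

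The series measured RNA of rat cortical type-I astrocytes on 18 oligonucleotide arrays. Controls 1 to 6 were cells grown without peptide on laminin and nitrocellulose for a time that the labels leave unstated. The exposed cells grew on immobilized beta-amyloid peptide 25-35, a short fragment of the amyloid beta protein, for 12 hours, 1 day, 3 days or 5 days, with 3 arrays at each time. Controls 1 and 2 have the source label cerebral cortex, though their titles say astrocytes, and the other 16 arrays have the astrocytes as their source. Strain, animal age and the number of separate cultures are not given in the labels, so the spread between arrays of a group may be technical.

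Ionotropic receptors open an ion channel when glutamate binds: AMPA receptors (Gria subunits) and kainate receptors (Grik) carry fast currents, and NMDA receptors (Grin) admit calcium. Metabotropic receptors (Grm) act through G proteins, and in astrocytes Grm3 and Grm5 are the best known. Scaffolds such as the Dlg and Grip proteins hold receptors at the membrane, and neuronal pentraxins (Nptx) gather AMPA receptors at the cell surface.

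The arrays had closely matched mean signal, 502.067 to 502.632 after the lowest and highest 2% of values were set aside. Their median signals were less alike, 101.6 to 133.1, with 101.6, 104.6 and 105.6 on the 12-hour arrays. The share of probe sets at or under 11.3, the floor used below, was 6.33% to 12.5%. On the 12-hour arrays it was 11.5%, 12.1% and 12.5%. Hierarchical clustering on the probe sets outside the complex divided the arrays into a smaller cluster of 7 arrays and a larger cluster of 11. The smaller cluster held controls 1 and 2, all 3 of the 12-hour arrays, array 3 at 1 day and array 3 at 3 days. All 3 of the 5-day arrays lay in the larger cluster. The median correlation across probe sets was 0.957 for arrays of 1 group and 1 cluster, 0.815 for arrays of 1 group in different clusters and 0.918 for arrays of different groups in 1 cluster. Of 12 astrocyte markers 8 were measured, and their summed signal was 24072.3 to 38020.9 in controls, 38558.2 to 39896.6 at 12 hours, 33637.8 to 36274.2 at 1 day, 25857.4 to 33324.8 at 3 days and 41664.5 to 42339.6 at 5 days. By cluster the astrocyte sum was 33324.8 to 39896.6 in the smaller and 24072.3 to 42339.6 in the larger. Vim contributed 14574.7 to 18647.7 to it in the smaller and 8770.4 to 18831.2 in the larger. Glul contributed 4981.2 to 12630.1 in the smaller and 5569.9 to 9839.4 in the larger. Gfap and Aqp4 were not among the measured markers. Of 16 neuronal markers 10 were measured, with sums of 3472.7 to 6192.6 in controls, 3306.1 to 3542.8 at 12 hours, 4842.1 to 5265.4 at 1 day, 3955.2 to 5896.9 at 3 days and 4903.2 to 5141.8 at 5 days. By cluster the neuronal sum was 3306.1 to 4842.1 in the smaller and 4731.1 to 6192.6 in the larger. Its largest part was Eno2, with 2122.9 to 3158.4 in the smaller and 2904.4 to 3833.6 in the larger. The oligodendrocyte list (6 of 11 genes measured) summed to 1104.9 to 1977 over all arrays, with its lineage regulator Sox10 at 2.9 to 11.9. The single measured microglial marker, Itgam, had signals of 22.3 to 77. The fibroblast and vascular markers (2 of 10 measured, mostly Igf2) summed to 3562.4 to 9282.7 in the smaller cluster and 491.4 to 935.3 in the larger.

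Of the 54 probe sets, 40 from 24 genes exceeded a signal of 44.9 on at least 3 arrays and were tested together with all 1027 probe sets that did so. The other 14 were too dim, which removed Grid1, Grik1, Grik2, Grik4, Grip1, Grm3 and Grm5 altogether. Differences were tested with limma on log2 signal, with signals under a floor of 11.3 set to that floor, and a call is a Benjamini-Hochberg adjusted p of at most 0.05. The log2 fold given is exposed minus control, or 5 days minus 12 hours, with its standard error (SE).

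No member passed the test against control at any exposure time, and all 6 member calls came from the comparison of 5 days with 12 hours. Grik5, Gria3 (both probe sets) and 1 Grin3a probe set were higher at 5 days than at 12 hours. Dlgap4 and Nptx2, each with 1 probe set, were lower. In RNA from a whole culture, a lower signal from fewer cells of a type and from less RNA per cell cannot be told apart.

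At 12 hours against control, 0 of 40 members were called by limma, against 1.66% of all 1027 probe sets, and the smallest adjusted p of a member was 0.0780. At an unadjusted p under 0.05, 2 members were higher and 7 lower, against 11% and 18.3% of all probe sets. The median log2 fold was -0.41 over the members and -0.18 over all probe sets. After quantile normalization these medians were -0.16 and -0.02, and after centring each array on its median they were -0.21 and 0.02. The calls over all probe sets were 8 higher and 9 lower as deposited, 7 higher and 1 lower after quantile normalization and 10 higher and 5 lower after centring. Signals at 12 hours lay wholly above the controls for 1 member and wholly below for 3, against 5.36% and 9.83% of all probe sets. With controls 1 and 2 left out, 11 members (27.5%) were called, 3 higher and 8 lower, against 31.3% of all probe sets. The other controls all lay in the larger cluster and the 12-hour arrays in the smaller. In that setting time and cluster cannot be told apart, which holds for every 12-hour fold given below without controls 1 and 2. Without control 1 alone 8 members were called (20.5% of all probe sets), and without control 2 alone 1 was (3.02% of all).

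At 1 day against control, 0 members were called, against 0.292% of all probe sets, and at 3 days 0 were called, against 0% of all. At an unadjusted p under 0.05, 2 members were higher and 6 lower at 1 day (11.7% of all probe sets in either direction), and 0 higher and 1 lower at 3 days (4.58% of all). The 1-day count was 3 without array 3 of that time (2.53% of all probe sets), 4 without controls 1 and 2 (5.74% of all), 4 with the array cluster as a block in the fit (2.92% of all) and 7 within the larger cluster alone (12% of all). At 5 days against control, 0 were called, against 0% of all, with 0 higher and 3 lower at an unadjusted p under 0.05 (9.15% of all). The mean of the 4 exposure times differed from control for 0 members, against 0% of all, with 0 higher and 4 lower at an unadjusted p under 0.05 (7.5% of all). Without controls 1 and 2, 3 members were called in that mean, against 5.26% of all. In that setting the controls were all of the larger cluster. The exposed arrays of this mean and of 1 day were of both clusters, so cluster enters these folds too. Over all arrays, the comparisons against control share the same 6 controls. The limma F-test over the 5 groups called 0 members, against 1.66% of all probe sets, and 13 members had an unadjusted p under 0.05 (25.1% of all); the smallest adjusted p was 0.0621, for Grik5, and with controls 1 and 2 left out 6 members were called, among 219 probe sets in all.

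At 5 days against 12 hours, 4 members were higher and 2 lower, against 8.96% and 7.5% of all probe sets. The 6 calls are 15% of the members, near the 16.5% of all probe sets called in either direction. The calls over all probe sets were 92 higher and 77 lower as deposited, 43 higher and 49 lower after quantile normalization and 68 higher and 89 lower after centring. The median over all probe sets was 0.01 as deposited and -0.12 after either rescaling. Ranges did not overlap for 10 members higher and 5 lower at 5 days, against 26.7% and 27.1% of all probe sets. The 12-hour arrays were all in the smaller cluster and the 5-day arrays all in the larger, so within these arrays time and cluster cannot be told apart. With the cluster as a block, which takes its size from the other groups, 0 members and 0% of all probe sets were called. Leaving out array 1, 2 or 3 at 12 hours left 0 members called, and 1.17%, 0.0974% and 1.07% of all probe sets. Leaving out array 2 or 3 at 5 days also left 0, and 0.974% of all in both cases. Without array 1 at 5 days 1 was called (3.21% of all), and without array 2 at 1 day, which enters through the shared spread, 3 were (7.4% of all).

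**Figure D1:**
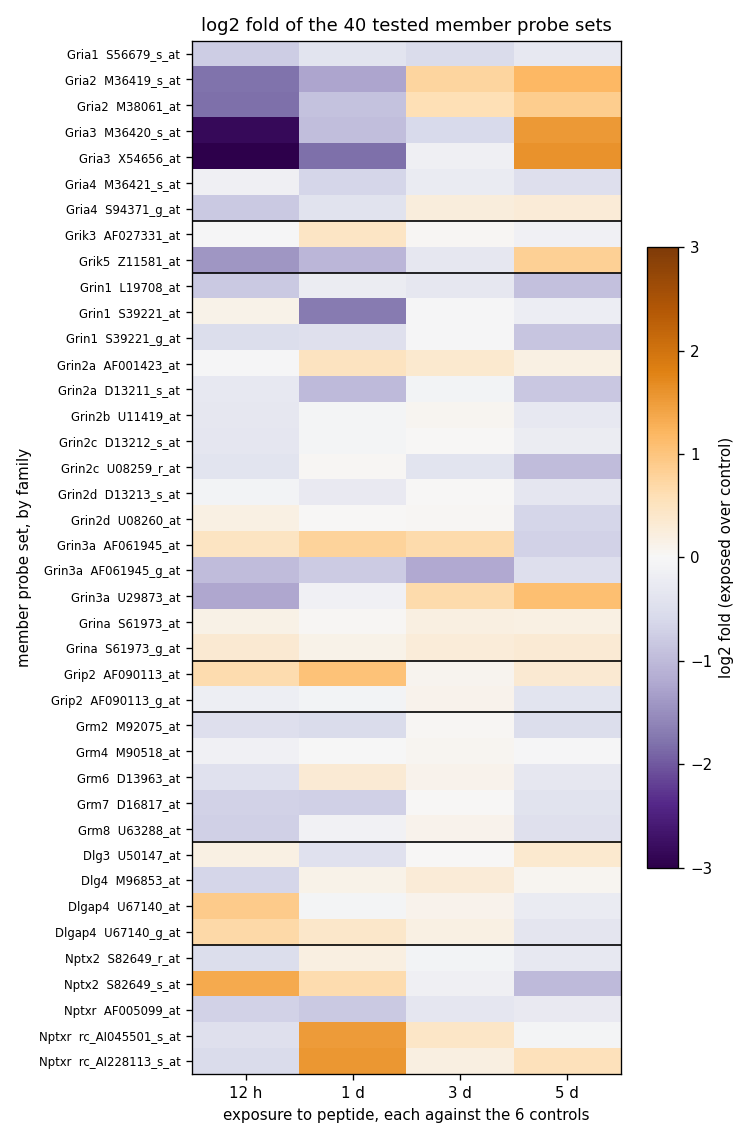
Heat map of the log2 fold of exposed over control arrays (colour scale, -3 to 3) for the 40 tested member probe sets (rows, by family) at 12 hours, 1 day, 3 days and 5 days (columns). The AMPA receptor (Gria) rows have a median of -1.80 at 12 hours and 0.87 at 5 days, and no cell passed the test. The 12-hour arrays were all in the smaller array cluster and the 5-day arrays all in the larger.

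Among AMPA receptor subunits, Gria3 was at the floor on every 12-hour array and well above it at 5 days. All 7 tested Gria probe sets had a negative log2 fold against control at 12 hours (6 of 7 after quantile normalization or centring) and at 1 day, and 5 of the 7 had a positive one at 5 days under each scaling. Of all 1027 probe sets as deposited, 616 were negative at 12 hours and 578 at 1 day, and 379 were positive at 5 days. The medians of the Gria family were -1.80 at 12 hours, -0.90 at 1 day, -0.15 at 3 days and 0.87 at 5 days. No member of it was called against control. All 12-hour arrays were of the smaller cluster and all 5-day arrays of the larger, so between these medians time and cluster cannot be told apart.

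Gria3, a pore-forming AMPA receptor subunit, had 2 tested probe sets. Probe set M36420_s_at had signals of 297.6, 182.3 and 242.9 on the 5-day arrays, against 3, 7.3 and 6.9 on the 12-hour arrays. At 1 day its signals were 71.9, 77.1 and 13.6, and at 3 days they were 100.1, 137 and 7.3. Among the controls the lowest was 6.8, the median 207.4 and the highest 237.5. The low values in every group were on arrays of the smaller cluster: controls 1 and 2 had 6.8 and 8.2, against 191.8 to 237.5 for controls 3 to 6. The 5-day and 12-hour ranges did not overlap, and the fold was at least 20.9, taken against the floor (log2 fold 4.39 ± 1.26 SE, limma adjusted p = 0.0409). With the array cluster as a block the log2 fold was 0.79 (limma adjusted p = 0.389).

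The other Gria3 probe set, X54656_at, had signals of 319.2, 252.5 and 253.7 at 5 days, against 8.8, 3.1 and 5.6 at 12 hours. Its signals were 68.1, 21.2 and 11.1 at 1 day and 211.3, 220 and 6.5 at 3 days, and the controls ranged over 5.1, 229.7 and 298.4 (lowest, median, highest). The low arrays were the same as for the other probe set. The fold of 5 days over 12 hours was at least 24.2 (log2 fold 4.60 ± 1.36 SE, limma adjusted p = 0.0429), and 0.85 on the log2 scale with the cluster as a block (adjusted p = 0.557). Both Gria3 calls were lost when dim probe sets were kept in the test. Against control at 12 hours the Gria3 log2 folds were -2.86 ± 1.09 and -2.99 ± 1.18 (SE; limma adjusted p = 0.117 and 0.124). Without controls 1 and 2 they were -4.28 and -4.49 (adjusted p = 0.00172 and 0.00211). Within the smaller cluster, where the 12-hour arrays meet controls 1 and 2, the log2 fold of M36420_s_at was 0.00, since both sides were at the floor. At 1 day neither was called against control over all arrays (log2 folds -0.95 and -1.82; limma adjusted p = 0.841 and 0.616). Within the larger cluster both were called lower at 1 day, with log2 folds of -1.56 for M36420_s_at and -2.74 for X54656_at (limma adjusted p = 0.00244 and 0.00207). X54656_at was also called lower at 1 day with the cluster as a block (log2 fold -1.82, adjusted p = 0.0319) and without controls 1 and 2 (-3.32, adjusted p = 0.0321). In the last setting all controls were of the larger cluster, whereas array 3 at 1 day was of the smaller.

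Gria2, the subunit that makes AMPA receptors largely impermeable to calcium, followed the same arrays and was not called over all arrays. Probe set M36419_s_at had signals of 480.7, 162.2 and 138.7 at 5 days, against 32, 25 and 26.9 at 12 hours, with 14.9 and 9 on the smaller-cluster arrays at 1 day and 3 days. Its controls had a lowest signal of 8.5, a median of 165.75 and a highest of 642.3, the 2 lowest being controls 1 and 2. The 5-day signals lay above the 12-hour ones (log2 fold 2.99 ± 1.61 SE, limma adjusted p = 0.210). Probe set M38061_at had a log2 fold of 2.69 ± 1.09 (SE; limma adjusted p = 0.0982), which was called without controls 1 and 2 (adjusted p = 0.0417) and without array 3 at 3 days (adjusted p = 0.0474). Without controls 1 and 2 both were also called lower at 12 hours against control, with log2 folds of -3.35 for M36419_s_at and -2.80 for M38061_at (limma adjusted p = 0.0428 and 0.0228).

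**Figure D2:**
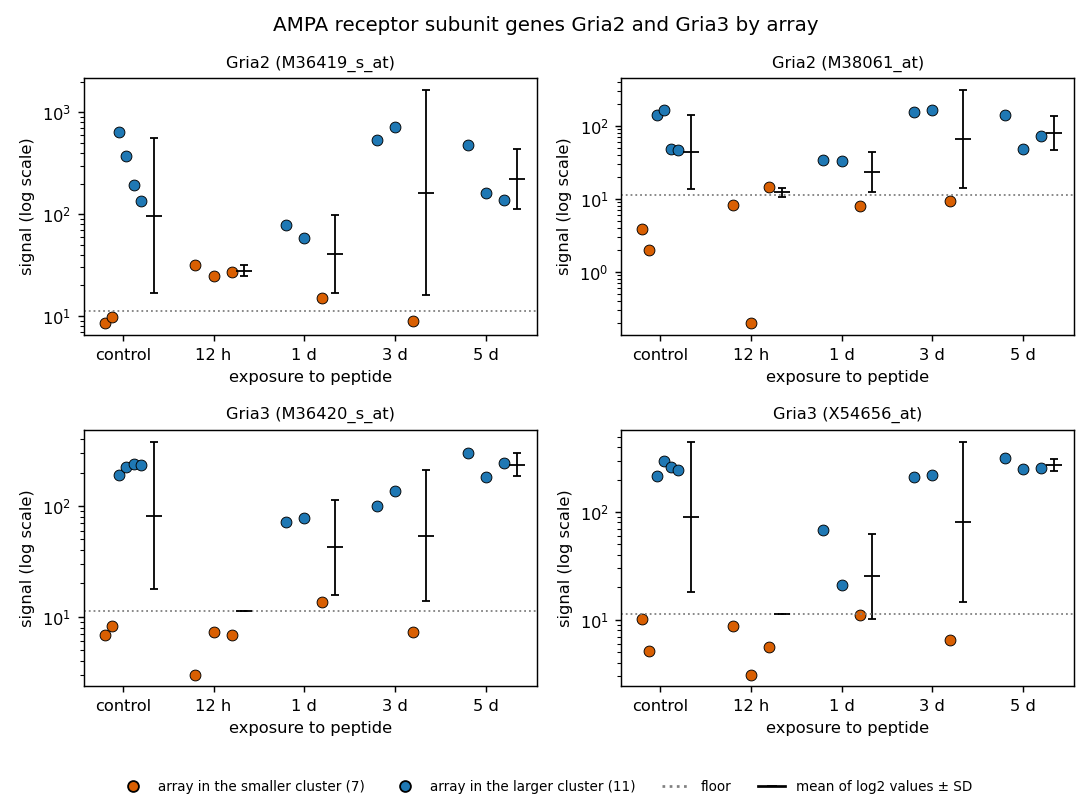
Signal (log axis) on each array for the Gria2 and Gria3 probe sets, by group in the order control, 12 h, 1 d, 3 d and 5 d, with orange points for the 7 arrays of the smaller cluster, blue for the 11 of the larger, a dotted line at the floor of 11.3, and bars for the mean of log2 values ± SD. For Gria3 M36420_s_at the orange points lie between 3 and 13.6 and the blue points between 71.9 and 297.6.

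Both Gria2 and both Gria3 probe sets, with 1 Nptxr probe set, made up the 5 of 40 members (12.5%) that were lower on every array of the smaller cluster than on any of the larger, against 7.11% of all tested probe sets; 0 members were higher on all of them, against 7.79%. Of 17 tested neuronal marker probe sets, 3 divided the same way, all of Map2 (U30938_at had 31.1 to 74 in the smaller cluster and 241.1 to 631.9 in the larger), and 0 divided the other way. Of 18 astrocyte marker probe sets, 5 were lower in the smaller cluster, 3 of them of Slc1a3 (S59158_at had 259.8 to 654.8 in the smaller and 1556.2 to 4874.2 in the larger) with 1 each of S100b and Mt3, and 1, of Gja1, was higher. Higher in the smaller cluster were also 2 of 6 fibroblast and vascular probe sets, both Igf2, and 2 of 9 oligodendrocyte lineage ones, both Pdgfra. The part of any of these cell types in the Gria2 and Gria3 signals was not tested.

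Gria1, another AMPA subunit, had 1 tested probe set with no overlap with the controls at 12 hours. The controls had 88.7, 106.25 and 157.9 as lowest, median and highest. Its signals were 82.9, 49.9 and 74.3 at 12 hours, 78.1, 86.5 and 96.8 at 1 day, 66.7, 70.1 and 101.8 at 3 days and 88.8, 99.1 and 92.7 at 5 days (S56679_s_at). The log2 fold against control was -0.76 ± 0.22 at 12 hours (SE; limma adjusted p = 0.0848) and -0.50 ± 0.15 over the 4 times (adjusted p = 0.605), with all 12 exposed arrays below the control mean. At 12 hours it was called without controls 1 and 2 (log2 fold -0.79, adjusted p = 0.0191) and without control 1 alone (-0.83, adjusted p = 0.0216). Its other probe sets, M36418_s_at and X17184_at, were not tested, and neither exceeded 37.3. Gria4 had signals of 40.9 to 127.8 on M36421_s_at, with no call.

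Among the kainate receptor subunits, Grik5 was higher at 5 days than at 12 hours on all arrays. Grik5 encodes a subunit that binds kainate with high affinity and forms channels only with Grik1 to Grik3 subunits. Its upstream sequence is printed because it was the member with the smallest adjusted p. The 250 bases before the annotated start, read 5′ to 3′ on the minus strand, are chr1:89794910-89795159 of RefSeq build GRCr8. Capitals mark GGGCGG, the GC box, searched on both strands.
Grik5: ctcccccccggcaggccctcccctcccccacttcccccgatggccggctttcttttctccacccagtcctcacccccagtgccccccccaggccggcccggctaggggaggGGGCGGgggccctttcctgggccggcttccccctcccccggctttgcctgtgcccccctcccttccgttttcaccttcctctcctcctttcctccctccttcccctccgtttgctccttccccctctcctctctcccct
This window is 70.8% G and C, against a median of 51.2% over 33469 rat promoters of the same length. It holds 10 CpG dinucleotides, against a median of 5, and 1 GC box, a motif present in 30.5% of all of them. It has no match to TGACGTCA, the cyclic AMP response element, or to its core TGACG, which occur in 1.59% and 18.2% of all the windows. These matches describe letters and carry no result about any factor.

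Grik5 (Z11581_at) had signals of 879.2, 987.8 and 1193.2 at 5 days, against 181.9, 230.7 and 227.4 at 12 hours. At 1 day its signals were 305.2, 337.8 and 210.8, and at 3 days they were 518.1, 568.8 and 328.5. The controls had a lowest signal of 235.6, a median of 741.65 and a highest of 999.3. The 12-hour arrays lay below every control and the 5-day arrays above the control median. In each of the 1-day and 3-day groups the array of the smaller cluster was the lowest, and controls 1 and 2 (235.6 and 318.6) were the lowest controls. The 5-day level was 4.77-fold that at 12 hours (log2 fold 2.25 ± 0.46 SE, limma adjusted p = 0.0147), and 1.13 on the log2 scale with the cluster as a block (adjusted p = 0.150). Against control the log2 folds were -1.43 ± 0.40 at 12 hours, -1.03 ± 0.40 at 1 day, -0.32 ± 0.40 at 3 days and 0.82 ± 0.40 at 5 days (SE; limma adjusted p = 0.0780, 0.382, 0.999 and 0.520). Without controls 1 and 2 the 12-hour log2 fold was -1.96 (limma adjusted p = 0.000166). The 1-day fold was called with the cluster as a block (log2 fold -1.03, adjusted p = 0.0181), within the larger cluster (-1.36, adjusted p = 0.00345) and without controls 1 and 2 (-1.56, adjusted p = 0.00250). The last of these sets larger-cluster controls against 1-day arrays of both clusters. Grik3, a channel-forming kainate subunit, had signals of 55.4 to 198.2 and no call. Grik1, Grik2 and Grik4 were not tested, with no signal above 39 on any array.

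Of the 15 tested probe sets with the Grin prefix, which include those of Grina, 1 was called. Other probe sets of its gene did not follow it. Grin3a, a modulatory subunit that lowers calcium entry through NMDA receptors, had signals of 228.6, 69.9 and 112.3 at 5 days, against 13, 21.1 and 53.8 at 12 hours on U29873_at. It had 22.2, 58.6 and 110.3 at 1 day, 172.9, 35.4 and 122.2 at 3 days and 30.4 to 96.4 in controls, with a median of 63.1. The arrays of a group differed widely, and the 5-day and 12-hour ranges were apart by the gap between 69.9 and 53.8. The 5-day level was 4.95-fold that at 12 hours (log2 fold 2.31 ± 0.71 SE, limma adjusted p = 0.0446), and the call was lost after quantile normalization (log2 fold 2.06) and after centring (2.18). The other Grin3a probe sets had log2 folds of -1.17 (AF061945_at) and 0.51 (AF061945_g_at), neither called. With the cluster as a block the log2 fold of U29873_at was 2.73 (adjusted p = 0.180).

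**Figure D3:**
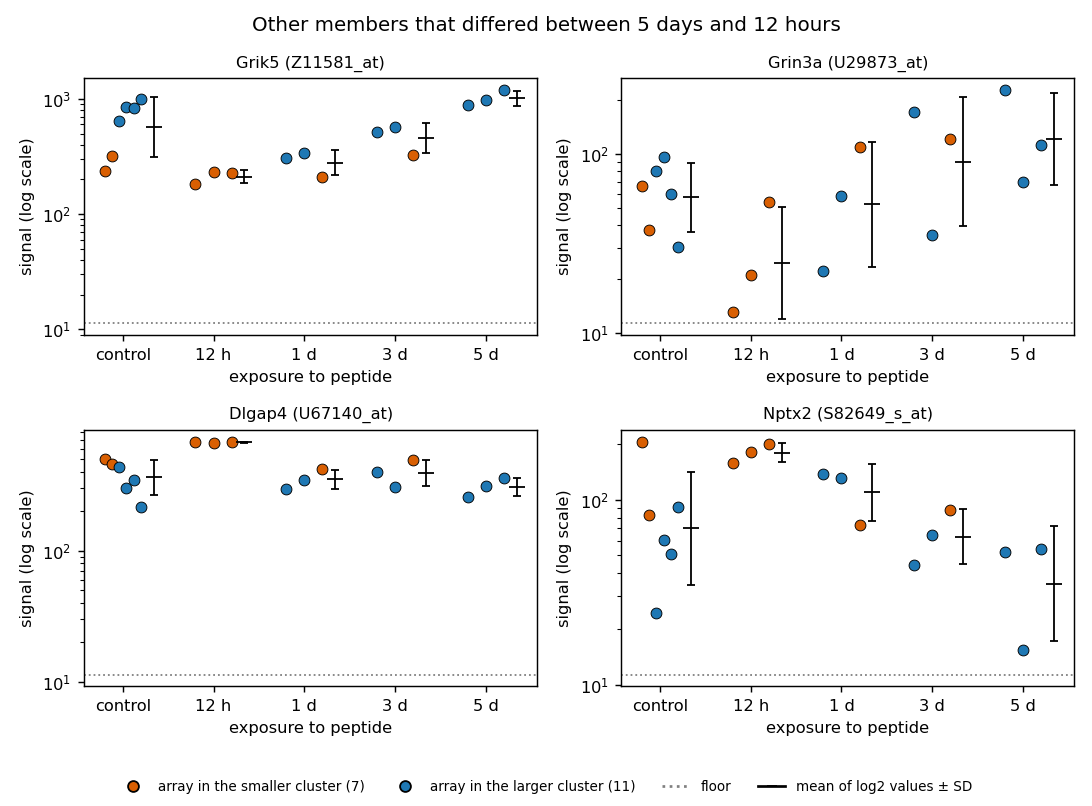
Signal (log axis) on each array for Grik5 (Z11581_at), Grin3a (U29873_at), Dlgap4 (U67140_at) and Nptx2 (S82649_s_at), by group, with orange and blue points for the smaller and larger array clusters, the floor as a dotted line and bars for the mean of log2 values ± SD. Grik5 has 879.2 to 1193.2 at 5 days and 181.9 to 230.7 at 12 hours, and Dlgap4 has 258.7 to 357.4 at 5 days and 666.7 to 679.1 at 12 hours.

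Grin1, the subunit that every NMDA receptor contains, was low on 2 of the 3 arrays at 1 day with probe set S39221_at. Its signals at 1 day were 9.5, 16.7 and 73.5, against a lowest control of 64.2, a median of 81.2 and a highest of 87.2. All the other arrays had 61.2 to 101.5, so the low values were confined, on this probe set, to the 1-day arrays of the larger cluster. The log2 fold was -1.71 ± 0.40 (SE; limma adjusted p = 0.0962), and -1.71 with adjusted p = 0.0175 with the cluster as a block. Within the larger cluster it was -2.50 (adjusted p = 0.000181). Probe set S39221_g_at, which shares its source sequence, had 178, 180.5 and 229.3 at 1 day, within the controls' 116.6 to 624.8. A further tested probe set, L19708_at, had 43.7, 20 and 71.9 at 1 day, against 23.8 to 107.6 in controls, and was not called.

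The Grin2 subunits set the kinetics of NMDA receptors. None was called by limma in any comparison of the main fit, with all 18 arrays and no block. Grin2c had 52.6, 49.6 and 79.3 on U08259_r_at at 5 days, against 66.9, 138.8 and 151.7 (lowest, median, highest) in controls, with overlap (log2 fold -0.97 ± 0.30 SE, adjusted p = 0.412). Grin2a had 31.9, 31.1 and 58.4 on D13211_s_at at 5 days, against 54.1, 68.9 and 92 in controls (log2 fold -0.84 ± 0.32 SE, adjusted p = 0.469). Each of these genes has another probe set that overlapped the controls throughout: Grin2c D13212_s_at had 174.4 to 207.6 at 5 days and Grin2a AF001423_at had 202.6 to 275.4. Grin2b was measured at 211.4 to 447.7 on all arrays. Grin2d had 201.6, 204.1 and 188.2 on D13213_s_at at 5 days, below the controls' 208.7 to 327.7. On U08260_at it had 77, 90.1 and 71 at 5 days, against 81.5 to 189.7 in controls. Without controls 1 and 2, U08260_at was called lower at 5 days than at 12 hours (log2 fold -0.81, limma adjusted p = 0.0404). In that setting 24% of all probe sets were called.

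Grina, which is not a receptor subunit, had control signals of 1502.1, 1879.55 and 2602.6 (lowest, median, highest) on S61973_g_at. Its exposed arrays had 2281.3, 2496.5 and 2474 at 12 hours, 2103.5, 1993.8 and 2128.2 at 1 day, 2382.3, 2173.1 and 2336.9 at 3 days and 1916.7, 2604.3 and 2685.5 at 5 days. The groups overlapped. Its log2 fold over the 4 times was 0.27 ± 0.13 (SE; limma adjusted p = 0.655). Without controls 1 and 2 the log2 fold at 12 hours was 0.51 (adjusted p = 0.0335). Probe set S61973_at had signals of 4768.4 to 8203.5 over all arrays.

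Of the 9 Grm probe sets 5 were tested, those of Grm2, Grm4, Grm6, Grm7 and Grm8, and none was called in any comparison. All 5 had negative log2 folds at 12 hours (-0.71 to -0.12; 4 of 5 after quantile normalization or centring) and at 5 days (-0.50 to -0.03; 4 of 5 after centring), but positive ones at 3 days (0.01 to 0.11), and their median at 12 hours was -0.47 for the deposited signal, -0.15 after quantile normalization and -0.28 after centring, beside -0.18, -0.02 and 0.02 for all probe sets. Of all 1027 probe sets as deposited, 616 were negative at 12 hours and 648 at 5 days, and 542 were positive at 3 days. Grm4, a receptor that lowers cyclic AMP, had 105.3 to 207.7 at 12 hours and 147.1 to 189.5 at 5 days, against 125.9 to 216.5 in controls. The receptors best known in astrocytes were dim: Grm3 had 6.7 to 62.8 and Grm5, which raises intracellular calcium, had 13.7 to 56.9. Neither exceeded 44.9 on 3 arrays. Grid1, a glutamate-related delta receptor, had 10.1 to 63.4.

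Among the scaffold proteins, Dlgap4 was lower at 5 days than at 12 hours, and Dlg4 and Dlg3 were not called. Dlgap4 belongs to the guanylate kinase-associated proteins that link Dlg scaffolds to the postsynaptic density. Its signals on U67140_at were 258.7, 311.9 and 357.4 at 5 days, against 670.4, 666.7 and 679.1 at 12 hours. It had 296.5, 345.5 and 418.6 at 1 day, 397.2, 307.7 and 489.1 at 3 days, and 217.2, 390 and 498.7 (lowest, median, highest) in controls. The 12-hour arrays were close together and above every other array. The 5-day level was 2.19-fold lower (log2 fold -1.13 ± 0.29 SE, limma adjusted p = 0.0282), and -0.61 on the log2 scale with the cluster as a block (adjusted p = 0.327). Against control the 12-hour log2 fold was 0.89 ± 0.25 (SE; limma adjusted p = 0.0780), and 1.09 without controls 1 and 2 (adjusted p = 0.00492). The other probe set, U67140_g_at, had a 5-day over 12-hour log2 fold of -1.05 ± 0.55 (SE; limma adjusted p = 0.195).

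Dlg4, the scaffold also called PSD-95, had control signals of 439.5, 627.7 and 1003.2 (lowest, median, highest). Its exposed arrays had 446.5, 426.2 and 410.9 at 12 hours, 808.5, 733.6 and 643 at 1 day, 1013.8, 880.5 and 605.2 at 3 days and 707.5, 615.6 and 761.6 at 5 days. The 12-hour arrays lay near or below the lowest control (log2 fold -0.64 ± 0.23 SE, limma adjusted p = 0.113). Without controls 1 and 2 the log2 fold was -0.81 (adjusted p = 0.0164). Dlg3 (SAP102) had 59.5 to 132.9 on all arrays. Grip2, a multi-PDZ protein that binds AMPA receptor tails, had on AF090113_at 238.5, 387.2 and 194.4 at 1 day, against 76.3, 99.4 and 310.7 (lowest, median, highest) in controls (log2 fold 1.05 ± 0.45 SE, limma adjusted p = 0.401). Its other probe set, AF090113_g_at, had 169.8 to 463.4 and no call, and Grip1 did not exceed 18.5.

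Among the pentraxins, Nptx2 was lower at 5 days than at 12 hours, and Nptxr was high on 2 of the 3 arrays at 1 day. Nptx2, also called Narp, is a secreted pentraxin that clusters AMPA receptors. Its upstream window is shown as that of a gene called in the opposite direction to Grik5, which Dlgap4 was too. It lies at chr12:15162046-15162295 of RefSeq build GRCr8 on the minus strand, with the GC box (GGGCGG or, on the other strand, CCGCCC) and TGACG in capitals.
Nptx2: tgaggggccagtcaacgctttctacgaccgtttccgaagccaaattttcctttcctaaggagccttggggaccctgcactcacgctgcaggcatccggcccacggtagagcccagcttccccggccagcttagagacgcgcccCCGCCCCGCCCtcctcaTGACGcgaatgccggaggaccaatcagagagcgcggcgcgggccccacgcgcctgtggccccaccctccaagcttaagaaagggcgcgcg
The window is 66% G and C with 24 CpG dinucleotides. It holds 2 GC box matches that overlap and 1 match to TGACG, and no TGACGTCA, the longer motif that contains TGACG. RefSeq windows were at hand for 4 of the 5 called genes, and none was for Gria3. Those of Dlgap4 and Grin3a, not shown, held 2 and 0 GC box matches and no match to TGACG.

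Nptx2 (S82649_s_at) had signals of 52.4, 15.3 and 54.3 at 5 days, against 158.3, 181 and 200.1 at 12 hours. It had 137.8, 131.4 and 72.9 at 1 day, 44.5, 64.2 and 87.6 at 3 days and 24.4, 71.5 and 205.8 (lowest, median, highest) in controls. The highest control was control 1, an array of the smaller cluster, and the 12-hour arrays overlapped the controls only through it. The 5-day level was 5.09-fold lower than at 12 hours (log2 fold -2.35 ± 0.62 SE, limma adjusted p = 0.0314), and -1.72 on the log2 scale with the cluster as a block (adjusted p = 0.313). Against control the 12-hour log2 fold was 1.36 ± 0.54 (SE; limma adjusted p = 0.124), and 1.81 without controls 1 and 2 (adjusted p = 0.0149). The other probe set, S82649_r_at, had a 5-day over 12-hour log2 fold of 0.21 ± 0.50 (SE; limma adjusted p = 0.800).

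Nptxr, the membrane-bound pentraxin receptor, had 3 probe sets that did not behave alike. Probe set rc_AI228113_s_at had control signals of 75.5, 185.4 and 613.8 as lowest, median and highest. Its exposed arrays had 130.1, 147.8 and 114.5 at 12 hours, 1367.7, 1283.7 and 99.2 at 1 day, 552, 537.8 and 36 at 3 days and 198.5, 332.2 and 336.1 at 5 days. The 2 larger-cluster arrays at 1 day were the highest of all 18, and the third array of that time was among the lowest. The log2 fold at 1 day was 1.55 ± 0.91 (SE; limma adjusted p = 0.558) over all arrays and 2.33 within the larger cluster (adjusted p = 0.0113). Probe set rc_AI045501_s_at had 699, 773.2 and 75.8 at 1 day, against 57.9, 116.3 and 318.5 in controls (log2 fold 1.51 ± 0.70 SE, limma adjusted p = 0.426). Within the larger cluster its log2 fold was 2.32 (adjusted p = 0.0264).

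Probe set AF005099_at went the other way. It had 51.3, 78.4 and 81.5 at 1 day, against 94.8, 124.6 and 142.6 (lowest, median, highest) in controls, with no overlap. The log2 fold was -0.82 ± 0.20 (SE; limma adjusted p = 0.142), and -0.97 within the larger cluster (adjusted p = 0.0221). Over the 4 times the log2 fold was -0.53 ± 0.14 (SE; limma adjusted p = 0.605), with all 12 exposed arrays below the control mean. Which of the 3 probe sets reflects the level of the Nptxr transcript was not tested.

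**Figure D4:**
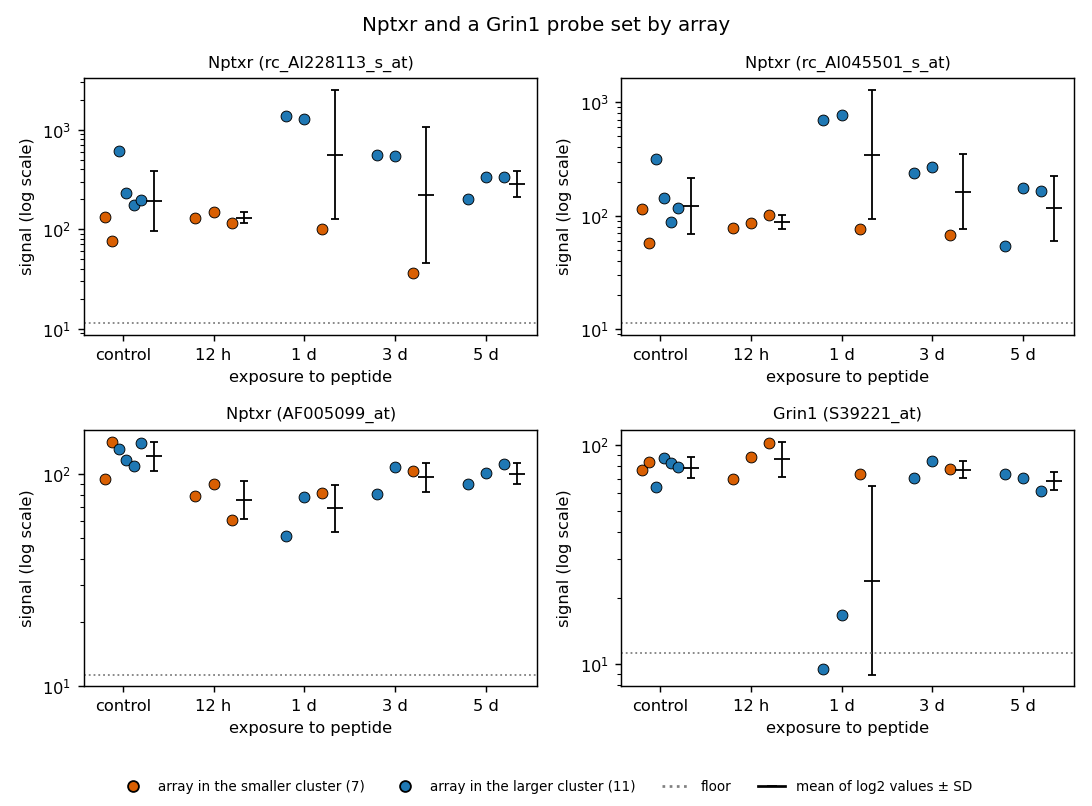
Signal (log axis) on each array for the 3 Nptxr probe sets and Grin1 S39221_at, by group, with orange and blue points for the smaller and larger array clusters, the floor as a dotted line and bars for the mean of log2 values ± SD. At 1 day the blue points of rc_AI228113_s_at lie at 1367.7 and 1283.7 and those of Grin1 at 9.5 and 16.7, and the orange points at 99.2 and 73.5.

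Genes outside the complex that handle or relay glutamate were followed in 2 lists. Of 14 genes of glutamate uptake, synthesis and vesicle loading, 5 were tested with 17 probe sets. Against control, 1 was called at 12 hours (1.66% of all probe sets were), higher: 1 probe set of Glul, glutamine synthetase, which converts glutamate to glutamine (log2 fold 0.92 ± 0.21 SE, limma adjusted p = 0.0439). At 1 day 1 was called (0.292% of all), higher: 1 probe set of Slc1a2, the astrocyte glutamate transporter GLT-1 (log2 fold 1.88 ± 0.31 SE, limma adjusted p = 0.0151). Other Slc1a2 probe sets overlapped the controls at 1 day: U15098_at had 62.3 to 111.9 against 36.5 to 107.4, and rc_AI044517_at had 22.5 to 63.1 against 7.7 to 62.1. At 3 and 5 days none was called. For 5 days against 12 hours, 2 probe sets of Slc1a3, the transporter GLAST, were higher (log2 folds of 3.52 and 3.28; limma adjusted p = 0.0460 and 0.0446) and 1 probe set of Glul was lower (-0.84, adjusted p = 0.0409), against 8.96% of all probe sets higher and 7.5% lower.

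Of 41 genes of receptor signalling and scaffolding, 17 were tested with 34 probe sets, and 0 were called against control at any time. At 5 days against 12 hours 6 probe sets were higher and 1 lower, against 8.96% and 7.5% of all probe sets, and with the cluster as a block no probe set of either list was called. The higher ones were Fyn, a kinase that phosphorylates NMDA receptors (log2 fold 1.87), the synaptic adhesion molecules Nlgn1 (2.54), Nlgn3 (1.53) and Nrxn2 (2.55), and 2 probe sets of the kinase Prkcb (2.89 and 5.16). The lower one was the calcium channel gene Cacna1c (limma adjusted p = 0.0448). The median log2 fold of the list was 0.28, beside 0.01 for all probe sets and 0.10 for the receptor complex.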

How the data were processed

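The authors deposited linear intensity values, called signal here, 1 for each probe set on each of 18 arrays. Which software and scaling target they used was not given in the sources used here. The trimmed means, computed from the deposited intensity values, were nearly equal on every array, so no further scaling was applied. Control probe sets (59) were left out. The floor of 11.3 and the filter of 44.9 are the 10th and 30th percentiles of the other 1263 probe sets, and a probe set had to exceed the filter on at least 3 arrays. Folds of probe sets near the floor are understated, and a fold against a group wholly at the floor is a lower bound.

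A single model held all 18 arrays in 5 groups and left 13 residual degrees of freedom (limma 3.58.1, R 4.3.3), with two-sided tests and Benjamini-Hochberg adjustment over all 1027 probe sets. Scripts were tested on simulated data. Probe sets were named from the platform annotation, and all 54 members matched the reference table by gene identifier; no averaging was done over a gene's probe sets, some of which may match related transcripts. Promoter windows came from RefSeq (GRCr8).

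Members and lists were chosen with earlier results of these data known. Named probe sets were those called and the brightest of each family. Where a comparison had no call, the 2 with the smallest p in each direction were named too. Grik3, Gria2, Gria4, Dlg3, Grin2b, Grin2d, Grm3 and Grm5 and some, not all, of the other probe sets of named genes were added as description. Alternatives changed the normalization, floor, filter, eBayes options, blocks and arrays used. Leaving out array 3 at 1 day and at 3 days together, and all alternatives of the F-test, were chosen after seeing the data.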

Additional observations from a re-analysis of the deposited data

Results flagged for a closer look

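Among the 6 controls, 4 values stood far above the rest. Nptx2 had 388.2 in control 2 on S82649_r_at (others 101.2 to 156.9) and 205.8 in control 1 on S82649_s_at (others 24.4 to 91.7). Nptxr had 318.5 in control 3 on rc_AI045501_s_at (others 57.9 to 143.2) and 613.8 in the same control on rc_AI228113_s_at (others 75.5 to 229.8). Such a gap arises by chance in about 1 in 20 groups, and these 4 were found among the controls of the 40 tested member probe sets.

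The effects of 5 days and 12 hours of exposure, each against the same controls, differed by limma's contrast of 5 days with 12 hours for 6 member probe sets. The log2 differences were 2.25 for Grik5, 4.39 and 4.60 for the Gria3 probe sets M36420_s_at and X54656_at, 2.31 for Grin3a (U29873_at), -1.13 for Dlgap4 and -2.35 for Nptx2. For every one of them time and array cluster cannot be told apart.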

How the results depend on the processing

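The number of called members at 12 hours against control was 0 and became 11 without controls 1 and 2, where time and cluster cannot be told apart. The range was 0 to 8 over arrays left out singly. At 1 day it was 0 and became 4 without controls 1 and 2, where cluster enters as well. It became 4 with the cluster as a block, 7 within the larger cluster and 4 without array 3 at 1 day and at 3 days. Its range was 0 to 3 over arrays left out singly. At 3 days it stayed at 0 in every alternative run. At 5 days against control it was 0 and became 4 with the replicate number as a block (5.94% of all probe sets), which leaves only controls 1 to 3 in the contrast. The leave-one-out range was 0 to 0. In the mean of the 4 times it was 0 and became 3 without controls 1 and 2, where cluster enters as well. It became 1 without array 3 at 1 day and at 3 days. At 5 days against 12 hours it was 6 and became 3 with no filter on dim probe sets and 0 with the cluster as a block, with a range of 0 to 7 over arrays left out singly; it was 5 to 9 under the other alternatives. Over all probe sets the 169 calls of that comparison became 92 after quantile normalization, 98 with no filter and 0 with the cluster as a block. The F-test count of 0 became 6 without controls 1 and 2, 1 with the cluster as a block, 1 with the replicate block and 4 without array 3 at 1 day and at 3 days, with a range of 0 to 3. The cause was not tested; leaving out a 12-hour or 5-day array leaves 2 in its group.

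Of 746 settings compared over 26 named folds, 0 changed direction where a call was made; 50 lost and 24 gained a call. In addition 2 uncalled folds changed sign, both within the smaller cluster: Grina S61973_g_at at 3 days (-0.03) and Nptxr rc_AI045501_s_at at 1 day (-0.11). In the comparisons made here, the replicate numbers were not taken to pair samples: the correlations of deviations of same-numbered arrays were between -0.60 and 0.08 against control and between -0.06 and 0.02 for 5 days against 12 hours. Same-numbered arrays at 3 days and 1 day, which were not compared, correlated at 0.39, 0.43 and 0.68; array 3 of both lies in the smaller cluster. With the replicate block the 4 members called at 5 days against control were Grik5 (log2 fold 1.47), Grin2c U08259_r_at (-1.34), Grin2d U08260_at (-1.10) and Grip2 AF090113_g_at (-0.74), with limma adjusted p of 0.0450, 0.0186, 0.0351 and 0.0462. Controls numbered above 3 have no same-numbered exposed array, so these folds rest on controls 1 to 3 only. Of these, controls 1 and 2 lay in the smaller cluster, whereas all 5-day arrays lay in the larger. The block gave 7 called members at 5 days against 12 hours (17.5%; 14.8% of all probe sets), and 0 at 12 hours, 1 day and 3 days. Signals near the floor and the 14 untested probe sets limit what the dim receptors can show.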
